A study of Mus musculus with 20 samples.

Results

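The genes examined were Atf4, which encodes the central transcription factor of the integrated stress response, and 9 genes that ATF4 is known to regulate, Ddit3, Trib3, Chac1, Asns, Psat1, Phgdh, Sesn2, Slc7a11 and Stc2. They were found by symbol among the 33495 genes of the table, and all 10 were present and passed the filter on low counts in each of the 3 Cre lines. The data were 20 RNA-seq libraries of embryonic heart from C57BL/6 mice in which floxed Kmt2d, the gene of an H3K4 methyltransferase, was deleted. Mesp1Cre is active in early mesoderm and gave 4 mutants and 4 controls, whole hearts that the sample labels place at E9.0 although the protocol text names E11.5 for all embryos. Tnnt2::Cre is active in cardiomyocytes and gave 3 mutants and 3 controls, whole hearts at E11.5. Mef2cAHF::Cre is active in anterior heart field precursors and gave 3 libraries labelled mutant and 3 labelled control, right ventricles with outflow tracts at E11.5. Each embryo carried the Cre of its line and 1 copy of the mTmG reporter of Cre activity. Mutants were Kmt2d fl/fl and controls, called WT in the labels, were Kmt2d fl/+. Each comparison therefore set deletion of both alleles against deletion of 1, in tissue that also held cells without Cre.

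In the integrated stress response, kinases that sense amino acid shortage, unfolded protein in the endoplasmic reticulum (ER), heme shortage or viral RNA phosphorylate the translation initiation factor eIF2. Protein synthesis falls, but the Atf4 mRNA is translated more, so that the response is driven largely by translation rather than by the level of Atf4 mRNA. ATF4 then activates genes for amino acid uptake and synthesis, glutathione metabolism and feedback on the response, and in the heart the pathway is known from mitochondrial disease and ischaemia. ATF4 pairs with C/EBP and other bZIP factors at an element whose core is commonly written TGATGNAA.

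That core was searched on both strands of the RefSeq promoter windows (GRCm38.p6), which run from 250 bases before to 50 after each start site. It was found for 4 of the 10 genes, Chac1, Slc7a11, Asns and Trib3. Over all genes it was found for 4.51% of 27025 genes and in 3.97% of their 32851 windows. The form TGATGCAA, a subset of that core, was found for Chac1 and Slc7a11, for 1.03% of all genes and in 0.895% of windows. Each printed stretch was also found letter for letter in mm9, the build of the count table. The stretches below are written 5′ to 3′ on the strand of the gene with the core in capitals, to show where it lies in these promoters.
Chac1, 237 bases upstream of the first annotated exon, chr2:119176728-119176964 (mm9, plus strand): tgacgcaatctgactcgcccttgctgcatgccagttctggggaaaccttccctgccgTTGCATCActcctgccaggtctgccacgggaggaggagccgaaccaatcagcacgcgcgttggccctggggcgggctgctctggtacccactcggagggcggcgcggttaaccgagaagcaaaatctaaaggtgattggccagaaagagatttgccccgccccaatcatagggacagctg
Slc7a11, 250 bases upstream of the start site, chr3:50247536-50247785 (mm9, minus strand): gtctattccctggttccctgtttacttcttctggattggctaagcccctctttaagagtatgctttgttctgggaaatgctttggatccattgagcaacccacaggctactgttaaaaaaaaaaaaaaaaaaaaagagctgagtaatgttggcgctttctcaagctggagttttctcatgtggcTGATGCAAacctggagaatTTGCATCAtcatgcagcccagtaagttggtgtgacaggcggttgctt
Asns, 30 bases around the core, chr6:7643214-7643243 (mm9, minus strand): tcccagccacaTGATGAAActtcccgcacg
Trib3, 30 bases around the core, chr2:152169764-152169793 (mm9, minus strand): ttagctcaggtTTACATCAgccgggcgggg
In Chac1 the core lay on the strand opposite to the gene and its first base was 193 bases before the start site. In Slc7a11 there were 2 copies facing each other, which began 66 and 47 bases before the start. In Asns it began 23 bases before the start, and in Trib3 it began 14 bases after the start, on the opposite strand. The windows of Atf4, Ddit3, Psat1, Phgdh, Sesn2 and Stc2 did not hold these letters.

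Reads counted per library ran from 21727258 to 45341870. All 8 cardiomyocyte markers examined were detected in every library. Counts were scaled to a common library size by TMM and are given as CPM, and changes are log2 fold changes of mutant over control with their SE from edgeR. A gene was taken to rise or fall where the Benjamini-Hochberg adjusted p over all genes tested in that line was under 0.05. Kmt2d, listed as Mll2, was counted over the whole gene, so reads outside the deleted exons remained. It was at 128 to 144 CPM in Mesp1Cre mutants against 152 to 164 in controls, at 107 to 116 in Tnnt2::Cre mutants against 119 to 159, and at 187 to 194 in the Mef2cAHF::Cre libraries labelled mutant against 146 to 156 in those labelled control. In Mef2cAHF::Cre it was higher in the libraries labelled mutant (log2 fold change 0.32, adjusted p = 0.0359). In Mesp1Cre and Tnnt2::Cre its log2 fold changes were -0.21 and -0.35 and did not pass the test (adjusted p = 0.0764 and 0.327). The columns of the table also call each Mef2cAHF::Cre library by the genotype opposite to its sample label. Both readings are given, and following the column names reverses every sign in that line. Gene positions below are those of the table in mm9.

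In the Mesp1Cre hearts 7 of the 10 genes rose in mutants, Stc2, Chac1, Slc7a11, Sesn2, Trib3, Asns and Psat1, and 0 fell. Over all 15883 genes tested in this line, 6.17% rose and 5.29% fell. The log2 fold change was above 0 for all 10 genes, against 49.8% of all genes, with a median of 1.13 against -0.0018 over all genes tested. The rises ran from 1.34-fold for Psat1 to 19.2-fold for Chac1. In 5 genes, Trib3, Chac1, Sesn2, Slc7a11 and Stc2, every mutant was above every control, which held in this direction for 9.02% of all genes tested. Without mutant 1 the count past the threshold was 4, where 1052 of 16267 genes (6.47%) passed. Without any 1 of the other libraries it was 5 to 7, where 6.93% to 13.3% of all genes passed. In these fits Stc2, Chac1, Slc7a11 and Sesn2 kept the call in 8 of 8, Trib3 in 7, Asns in 4 and Psat1 in 2.

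The transcription factors themselves did not pass the test in Mesp1Cre. Atf4 (ENSMUSG00000042406, chr15:80085929-80087970) was at 129, 87.5, 133 and 87.8 CPM in mutants 1 to 4 and at 86.9, 79.5, 97.9 and 100.2 CPM in controls 1 to 4. Mutants 1 and 3 were above every control and mutants 2 and 4 lay within the control range, with a log2 fold change of 0.26 ± 0.14 (adjusted p = 0.267). Ddit3 (ENSMUSG00000025408, chr10:126727830-126733276) encodes CHOP, a bZIP factor that ATF4 induces and that promotes apoptosis. Its levels of 13.6, 7.78, 15.1 and 7.74 CPM in mutants and 5.60, 10.3, 6.53 and 11.9 CPM in controls overlapped as well (log2 fold change 0.36 ± 0.29, adjusted p = 0.458). In both genes mutants 1 and 3 had the highest values. Ddit3 shares 68 exonic bases with Mars on the opposite strand in the GENCODE vM1 annotation, and whether the counting used strand is not given in the sources used here, so its counts are uncertain to that extent.

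Trib3 (ENSMUSG00000032715, chr2:152163158-152169768), a pseudokinase that binds ATF4 and restrains it, was at 9.38, 3.50, 8.02 and 5.58 CPM in Mesp1Cre mutants and at 3.30, 1.22, 2.26 and 1.52 CPM in controls. The lowest mutant was just above the highest control, and the gene rose 3.18-fold (log2 fold change 1.67 ± 0.38, adjusted p = 0.0147). Chac1 (ENSMUSG00000027313, chr2:119176965-119180117), an enzyme that degrades glutathione, was at 11.7, 4.32, 16.4 and 5.70 CPM in mutants and at 0.556, 0.629, 0.121 and 0.659 CPM in controls. All mutants were far above all controls, and the rise was the largest of the 10 genes (log2 fold change 4.26 ± 0.52, adjusted p = 2.88e-04). The control values of Chac1 rest on 3 to 16 reads a library and those of the mutants on 111 to 373. Slc7a11 (ENSMUSG00000027737, chr3:50168858-50247535) encodes the cystine and glutamate exchanger that supplies cysteine for glutathione. It was at 6.24, 3.89, 4.25 and 5.38 CPM in mutants and at 1.30, 1.51, 1.05 and 1.28 CPM in controls, again without overlap (log2 fold change 1.94 ± 0.30, adjusted p = 0.00165).

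Among enzymes of amino acid synthesis the changes in Mesp1Cre were smaller. Asns (ENSMUSG00000029752, chr6:7625169-7643254), which makes asparagine, was at 90.0, 55.5, 88.2 and 69.2 CPM in mutants and at 46.5, 46.4, 51.3 and 56.3 CPM in controls. Only mutant 2 lay inside the control range, and Asns rose 1.51-fold (log2 fold change 0.59 ± 0.14, adjusted p = 0.0192). Psat1 and Phgdh encode consecutive enzymes of serine synthesis. Psat1 (ENSMUSG00000024640, chr19:15979622-15999473) was at 80.4, 68.5, 75.4 and 75.5 CPM in mutants and at 51.0, 50.9, 53.5 and 68.7 CPM in controls. Control 4 stood apart from the other controls and just above mutant 2, and Psat1 rose 1.34-fold (log2 fold change 0.42 ± 0.11, adjusted p = 0.0283). In fits that left out 1 library Asns kept the call in 4 of 8 and Psat1 in 2 of 8. Phgdh (ENSMUSG00000053398, chr3:98117093-98143913) was at 23.9, 17.5, 34.2 and 20.5 CPM in mutants and at 18.1, 20.4, 17.5 and 16.9 CPM in controls, and did not pass the test (log2 fold change 0.40 ± 0.18, adjusted p = 0.178).

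Sesn2 (ENSMUSG00000028893, chr4:132047947-132066416), a sestrin that restrains mTORC1 when leucine is short, was at 28.5, 12.4, 17.4 and 11.1 CPM in Mesp1Cre mutants and at 5.45, 4.53, 6.37 and 4.61 CPM in controls. It rose 3.31-fold with no overlap between genotypes (log2 fold change 1.73 ± 0.28, adjusted p = 0.00196). Stc2 (ENSMUSG00000020303, chr11:31257307-31270074) encodes the secreted glycoprotein stanniocalcin 2 and had the smallest adjusted p of the 10 genes. It was at 79.0, 38.0, 61.7 and 34.1 CPM in mutants and at 6.12, 5.41, 7.06 and 4.77 CPM in controls, a 9.09-fold rise (log2 fold change 3.18 ± 0.26, adjusted p = 1.77e-05). As for Atf4 and Ddit3, mutants 1 and 3 were the highest for Stc2, Chac1, Trib3, Asns, Phgdh and Sesn2.

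**Figure D1:**
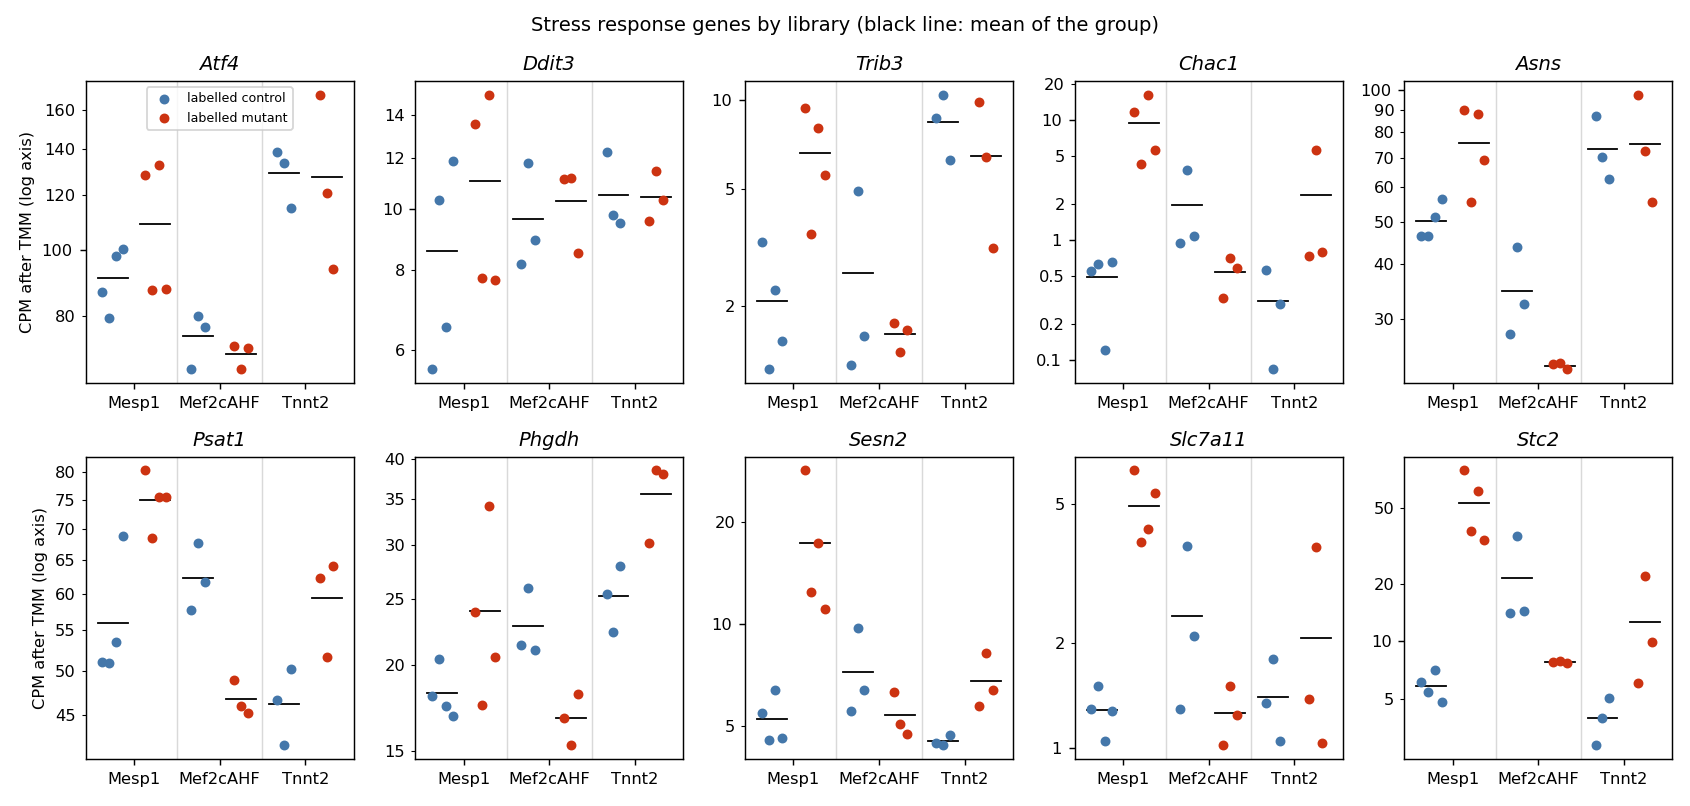
Each panel plots 1 gene on a log axis in CPM after TMM scaling, with 1 point per library, coloured by the genotype of the sample label, and a black line at the mean of each group (4 libraries per genotype for Mesp1Cre, 3 for the other lines). In Mesp1Cre the mutant points of Trib3, Chac1, Sesn2, Slc7a11 and Stc2 all lie above the control points, whereas in Mef2cAHF::Cre the points labelled mutant all lie below those labelled control for Chac1, Asns, Psat1, Phgdh and Stc2.

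In the Tnnt2::Cre hearts 0 of the 10 genes passed the adjusted threshold by edgeR, where 50 of 17045 genes tested, or 0.293%, did. At an unadjusted p under 0.05 there were 5, Stc2, Phgdh, Sesn2, Chac1 and Psat1, each with a higher level in mutants, against 6.21% of all genes in this direction. The Wald test of DESeq2 also called 0, where 2.16% of all genes passed. In the same 5 genes every mutant was above every control, which held for 9.13% of all genes. For 7 of the 10 the log2 fold change was above 0, against 50.7% of all genes, and the median was 0.43 against 0.0037 over all genes tested.

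Stc2 was at 6.07, 22.0 and 9.89 CPM in Tnnt2::Cre mutants and at 2.84, 3.93 and 5.04 CPM in controls (log2 fold change 1.69 ± 0.44, adjusted p = 0.208). Chac1 was at 0.738, 5.60 and 0.797 CPM in mutants and at 0.560, 0.0831 and 0.291 CPM in controls, with 3 to 25 reads in a control library (log2 fold change 2.88 ± 0.91, adjusted p = 0.283). For both genes mutant 2 was well above the other mutants. Phgdh was at 30.1, 38.5 and 38.0 CPM in mutants and at 25.4, 22.3 and 27.9 CPM in controls (log2 fold change 0.50 ± 0.13, adjusted p = 0.224). Psat1 was at 62.4, 51.6 and 64.1 CPM against 46.6, 41.9 and 50.2 CPM (log2 fold change 0.36 ± 0.12, adjusted p = 0.294). The serine synthesis genes were thus separated between the genotypes, by small margins at mutant 1 for Phgdh and at mutant 2 for Psat1. Sesn2 was at 5.74, 8.19 and 6.38 CPM against 4.44, 4.38 and 4.69 CPM (log2 fold change 0.59 ± 0.17, adjusted p = 0.259).

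The remaining genes overlapped between genotypes in Tnnt2::Cre. Slc7a11 was at 1.38, 3.77 and 1.04 CPM in mutants against 1.34, 1.80 and 1.05 CPM in controls, and its difference rested on mutant 2, without which the log2 fold change of 0.56 became -0.21. Atf4 ran from 93.7 to 168 CPM in mutants and from 115 to 139 CPM in controls, Ddit3 from 9.57 to 11.4 and from 9.50 to 12.3 CPM, Asns from 55.6 to 97.5 and from 62.7 to 87.0 CPM, and Trib3 from 3.14 to 9.85 and from 6.27 to 10.4 CPM. Their log2 fold changes were -0.019, -0.013, 0.036 and -0.38. The count of genes past the threshold depended on mutant 1: without it 3 genes passed, where 896 of all 17487 genes (5.12%) did, Stc2 (log2 fold change 2.02, adjusted p = 0.00914), Phgdh (0.60, adjusted p = 0.0221) and Chac1 (3.31, adjusted p = 0.0375). Without mutant 2 the log2 fold changes of Stc2 and Chac1 were 1.02 and 1.26.

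In Mef2cAHF::Cre, read by the sample labels, 1 of the 10 genes passed the threshold and was lower in the libraries labelled mutant, where 1.04% of 16920 genes were. This was Psat1, at 48.9, 46.0 and 45.2 CPM in the libraries labelled mutant and at 57.8, 67.6 and 61.7 CPM in those labelled control (log2 fold change -0.42 ± 0.08, adjusted p = 0.0291). Of the 10 genes, 9 had a log2 fold change under 0, against 51.2% of all genes, and the median was -0.50 against -0.0067 over all genes. At an unadjusted p under 0.05 there were 6, all lower, against 8.29% of all genes, and 5 genes were lower without overlap, where 24% of all genes had no overlap in either direction. The Wald test of DESeq2 called 5 of the 10, all lower, and 1103 of all genes (6.52%) in either direction, where edgeR called 482. By the column names the same Psat1 rose (log2 fold change 0.42), 9 of 10 log2 fold changes were above 0 and the median was 0.50.

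Library by library, 1 of the libraries labelled control stood above the others. Stc2 was at 7.80, 7.90 and 7.67 CPM in the libraries labelled mutant and at 14.1, 35.7 and 14.4 CPM in those labelled control (log2 fold change -1.46 ± 0.33, adjusted p = 0.0541). Chac1 was at 0.328, 0.715 and 0.582 CPM against 0.942, 3.86 and 1.08 CPM (log2 fold change -1.85 ± 0.58, adjusted p = 0.132). Asns was at 23.6, 23.8 and 23.0 CPM against 27.7, 43.9 and 32.5 CPM (log2 fold change -0.56 ± 0.15, adjusted p = 0.0853). In each of these the second library labelled control was the highest of the 6 and the libraries labelled mutant lay close together below the other group. Phgdh was at 16.8, 15.3 and 18.2 CPM against 21.4, 26.0 and 21.1 CPM, also without overlap (log2 fold change -0.45 ± 0.11, adjusted p = 0.0716).

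Slc7a11 at 1.02, 1.51 and 1.25 CPM against 1.29, 3.79 and 2.09 CPM and Sesn2 at 6.30, 5.04 and 4.74 CPM against 5.51, 9.70 and 6.38 CPM overlapped between the groups. Trib3 was at 1.75, 1.39 and 1.66 CPM in the libraries labelled mutant and at 1.26, 4.90 and 1.59 CPM in those labelled control, so that its log2 fold change of -0.69 came from the second library labelled control and was 0.18 without it. Without that library Stc2 passed the threshold (log2 fold change -0.87, adjusted p = 0.00432) together with Psat1 (-0.35, adjusted p = 0.0262), and the count was 2, where 3.83% of all genes passed. The log2 fold changes of Chac1, Slc7a11, Sesn2 and Asns without it were -0.89, -0.42, -0.15 and -0.35. Without any 1 of the libraries labelled mutant the count was 0, where 75 to 148 of all genes passed, and without the first library labelled control it was 3, where 2.83% did. Atf4 ran from 67.0 to 72.6 CPM and from 67.2 to 80.2 CPM, and Ddit3 from 8.53 to 11.2 CPM and from 8.20 to 11.8 CPM, with log2 fold changes of -0.087 and 0.090.

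**Figure D2:**
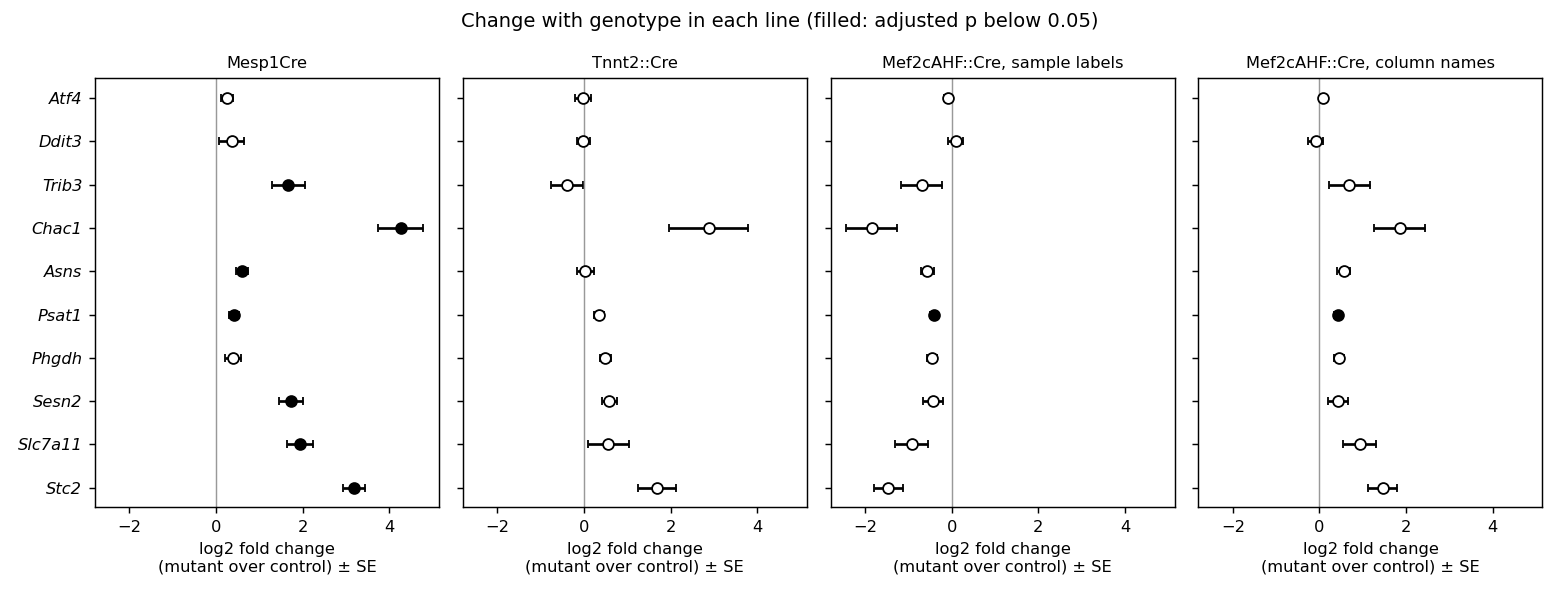
Log2 fold changes of mutant over control with SE bars for the 10 genes in each line, with filled points where the adjusted p is under 0.05. Chac1 and Stc2 lie farthest from 0 in every panel, at 4.26 and 3.18 in Mesp1Cre and 2.88 and 1.69 in Tnnt2::Cre, and the 2 panels of Mef2cAHF::Cre are mirror images, at -1.85 and -1.46 by the sample labels and 1.85 and 1.46 by the column names.

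Chac1, Asns, Psat1, Phgdh, Sesn2, Slc7a11 and Stc2 had log2 fold changes above 0 in Mesp1Cre and Tnnt2::Cre and under 0 in Mef2cAHF::Cre by the sample labels. Whether the lines differed was tested in 1 fit of all 20 libraries as a difference of the genotype effects, in which comparisons that involve 1 line share its libraries. Between Mesp1Cre and Tnnt2::Cre 0 of the 10 genes passed in edgeR, where 3.04% of 18391 genes did. The largest difference was that of Trib3 (2.03 ± 0.63, adjusted p = 0.0801), and 4 genes had an unadjusted p under 0.05, against 19.2% of all genes. The Wald test of DESeq2 called 2, where 6.75% of all genes passed.

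Between Mesp1Cre and Mef2cAHF::Cre by the sample labels 8 of the 10 genes passed, against 11.3% of all genes, and the same number had an unadjusted p under 0.05, against 26%. The genotype effects of Chac1 differed by 6.09 ± 1.09 (adjusted p = 0.00127) and those of Stc2 by 4.63 ± 0.56 (adjusted p = 3.70e-05). The differences for Slc7a11, Trib3, Sesn2, Asns, Phgdh and Psat1 were 2.85, 2.33, 2.14, 1.14, 0.83 and 0.82. In fits that left out 1 library Trib3 lost the call in 5 of 20 and Phgdh in 4 of 20. By the column names 0 of 10 passed, against 1.63% of all genes, 3 had an unadjusted p under 0.05, against 16.2%, and the smallest adjusted p was 0.0905 for Sesn2. The differences of Asns, Psat1 and Phgdh were then 0.014, -0.016 and -0.065, with SEs of 0.27, 0.15 and 0.24.

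Between Mef2cAHF::Cre and Tnnt2::Cre 4 of the 10 genes passed by the sample labels, Stc2 (-3.14 ± 0.59), Chac1 (-4.72 ± 1.15), Psat1 (-0.78 ± 0.16) and Phgdh (-0.94 ± 0.25), against 3.19% of all genes. Phgdh passed narrowly (adjusted p = 0.0485) and lost the call in 16 of 20 fits that left out 1 library, Chac1 (adjusted p = 0.0277) lost it in 7 of 20, and Stc2 and Psat1 lost it in 0 of 20. Among the 10 genes 7 had an unadjusted p under 0.05, against 15.3%. By the column names 0 of all 18391 genes passed, 2.57% had an unadjusted p under 0.05, and none of the 10 did. In that reading Stc2 differed by -0.22 ± 0.58 and Psat1 by 0.060 ± 0.16. The difference between the lines thus depended on which label of Mef2cAHF::Cre was followed.

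Levels were compared between genes per length, as the FPKM that the authors computed from counts, exonic length and library total. In Mesp1Cre controls Atf4 was highest at 61.2 ± 7.41 FPKM (SD, n = 4), followed by Psat1 at 25.4 ± 3.99, Asns at 17.4 ± 1.82, Phgdh at 6.92 ± 0.512 and Ddit3 at 4.93 ± 1.70. Sesn2 at 1.43 ± 0.258, Stc2 at 1.07 ± 0.194 and Trib3 at 0.924 ± 0.411 followed, and Chac1 at 0.282 ± 0.143 and Slc7a11 at 0.108 ± 0.0141 were lowest. The ranges of neighbouring genes overlapped for Phgdh and Ddit3, for Sesn2 and Stc2, for Stc2 and Trib3, and for Chac1 and Slc7a11. The 5 genes of highest level had the 5 smallest log2 fold changes in this line. In mutants Stc2 rose from 1.07 ± 0.194 to 10.9 ± 4.37 FPKM, with a range that overlapped that of Phgdh at 10.2 ± 3.08, and Chac1 from 0.282 ± 0.143 to 6.14 ± 3.58 FPKM.

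In Tnnt2::Cre controls Atf4 was again highest (88.3 ± 10.9 FPKM, SD, n = 3) and Slc7a11 lowest (0.120 ± 0.0338). Trib3 was at 3.84 ± 1.01 FPKM, above Sesn2 at 1.24 ± 0.0245 and Stc2 at 0.728 ± 0.184, whereas in Mesp1Cre controls it was below both. In the Mef2cAHF::Cre libraries labelled control the order was as in Mesp1Cre except that Stc2, at 4.42 ± 2.80 FPKM, was above Sesn2 at 2.19 ± 0.789, with overlapping ranges. Stretches of Phgdh and Slc7a11 exons of up to 289 and 375 bases have copies of at least 95% identity elsewhere in mm9, so that reads from these stretches may not be assigned uniquely.

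Other genes of the pathway were taken from 6 lists of 51 genes. These lists, like the stress response genes themselves and the other lists below, were chosen with earlier results of these data known. Counts above the share of all genes are therefore not independent support for a change of the pathway. In Mesp1Cre 47 of the 51 genes were tested, of which 11 rose and 2 fell, with a median log2 fold change of 0.21. Over all genes 6.17% rose and 5.29% fell, so the count that rose was above that share, and the count that fell was close to it. The amino acid and one-carbon synthesis list had 4 of 8 genes higher and 0 lower. These were Aldh1l2, a mitochondrial folate enzyme (log2 fold change 1.98, adjusted p = 0.00915), the alanine aminotransferase Gpt2 (1.88, adjusted p = 0.0157), Cth, which makes cysteine (1.39, adjusted p = 0.0307), and the mitochondrial serine hydroxymethyltransferase Shmt2 (1.04, adjusted p = 2.56e-04). Of 8 amino acid transporters 3 rose, Slc7a3 for cationic amino acids (3.21, adjusted p = 9.29e-04), Slc1a4 for alanine, serine and cysteine (0.96, adjusted p = 0.00226) and Slc7a5, the light chain of the large neutral amino acid transporter (0.88, adjusted p = 0.00261). The glutamine transporter Slc38a2 fell by 0.26 on the log2 scale (adjusted p = 0.0203).

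Among 6 tested genes of the list of other ATF4 targets 3 rose in Mesp1Cre. These were Ddit4, an inhibitor of mTORC1 (log2 fold change 3.02, adjusted p = 6.96e-05), the lipoprotein receptor Vldlr (2.56, adjusted p = 3.16e-05) and the autophagy receptor Sqstm1 (0.43, adjusted p = 0.0215). Of 13 genes of tRNA charging and export 1 rose, close to the share of all genes, the seryl-tRNA synthetase Sars (0.62, adjusted p = 0.0157). The list of bZIP partners had 0 of 5 genes past the threshold, with 1 at an unadjusted p under 0.05. The list of eIF2 kinases and phosphatase subunits, which also held Eif2s1, the eIF2 subunit that is phosphorylated, had 0 of 7 genes higher. Eif2s1 was its only gene past the threshold and fell by 0.32 on the log2 scale (adjusted p = 0.0392). A single gene of a list that passes is a result on that gene and not on the list.

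The ER chaperones, listed for the ATF6 and XBP1 arms of the unfolded protein response, had 0 of 13 genes higher and 4 lower in Mesp1Cre, where 5.29% of all genes fell. These were Manf (log2 fold change -0.47), Dnajc3 (-0.41), Hspa5 (-0.30) and Calr (-0.29). Of the others 4 had log2 fold changes above 0, the highest of 0.50 for Herpud1 (adjusted p = 0.102), which is named here after its value was seen. Targets of the hypoxia-inducible factor HIF rose in all 10 of 10 cases, where 6.17% of all genes rose, with a median log2 fold change of 1.52. The largest rises were those of Ndrg1 (3.37), Egln3 (3.13), Ankrd37 (2.34) and Bnip3 (1.90). Ddit4 and Stc2 are also known to be induced in hypoxia.

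In Tnnt2::Cre 49 of the 51 genes were tested and 0 passed the threshold, where 0.293% of all genes did. The smallest adjusted p was 0.313, and log2 fold changes were above 0 for 37, against 50.7% of all genes. The HIF targets were above 0 for 10 of 10. At an unadjusted p under 0.05 there were 8, against 6.21% of all genes in this direction, and 0 passed the threshold. In Mef2cAHF::Cre by the sample labels 1 of 49 passed and was lower, where 1.04% of all genes were. It was Mthfd2, a mitochondrial one-carbon enzyme (log2 fold change -0.68, adjusted p = 0.0185). All 13 genes of tRNA charging and export had log2 fold changes under 0, against 51.2% of all genes. Of these 11 had an unadjusted p under 0.05, against 8.29% of all genes in this direction, but 0 passed. The HIF targets were under 0 for 10 of 10, and Pfkfb3, a regulator of glycolysis, passed (-1.06, adjusted p = 0.0330), as did the ER protein Edem1 (-0.51, adjusted p = 0.0459). By the column names these signs reverse.

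**Figure D3:**
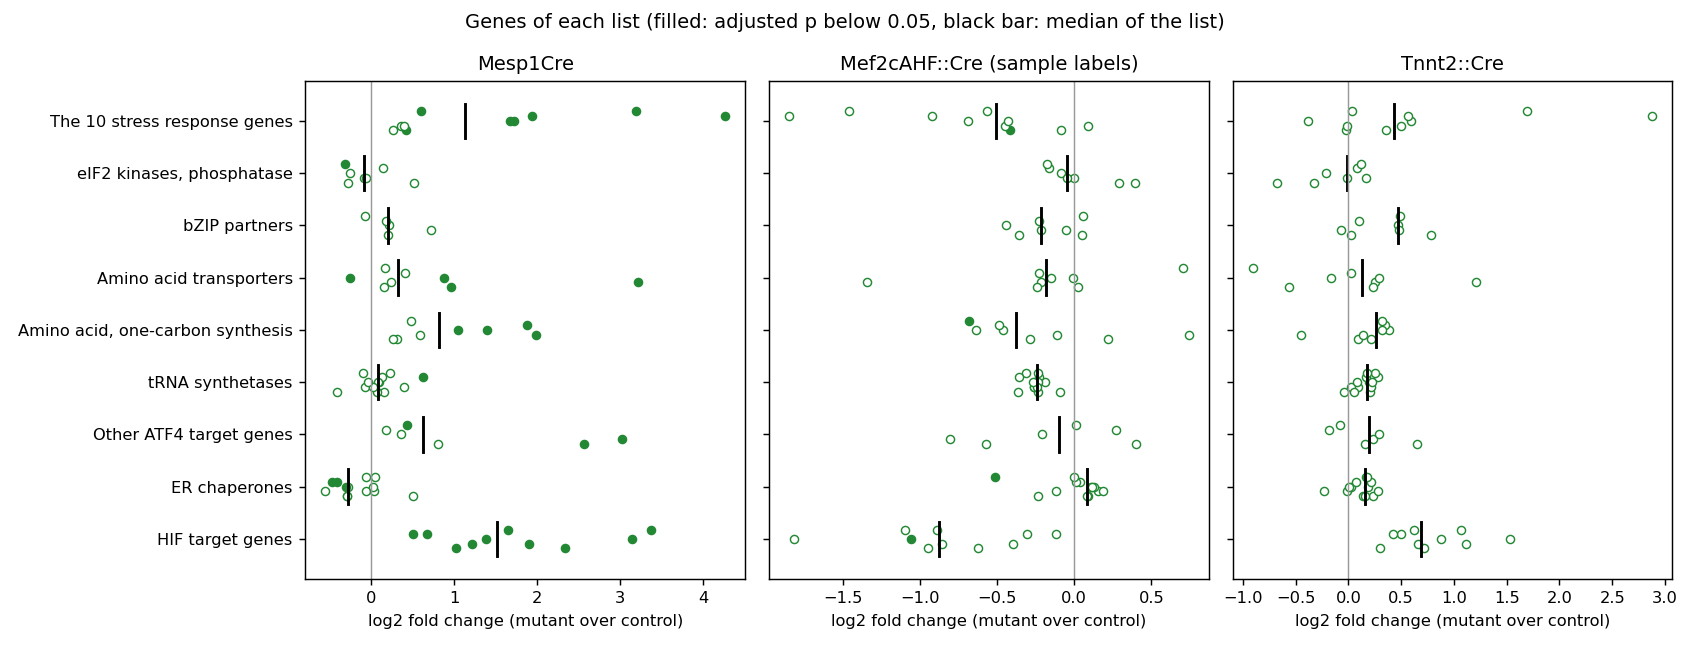
Each point is the log2 fold change of mutant over control of 1 gene of the list named at the left, filled where the adjusted p is under 0.05, and black bars are list medians. In Mesp1Cre the medians are 1.13 for the 10 stress response genes, 0.82 for amino acid and one-carbon synthesis, 1.52 for HIF targets and -0.28 for ER chaperones, and in Mef2cAHF::Cre by the sample labels those of the first 3 of these lists are -0.50, -0.37 and -0.87.

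The mean log2 CPM of the 10 genes, centred on each line, was set against all 15341 other genes tested in every line to find those that followed it most closely over the 20 libraries. The nearest were Ero1l (r = 0.980), Mthfd1l (r = 0.969), Shmt2 (r = 0.968), Sfmbt2 (r = 0.966) and Egln1 (r = 0.966). These are descriptions over libraries that share genotype, depth and tissue composition. The genes were chosen for following that mean in these same libraries, so the changes below follow from the choice and are not separate support. In Mesp1Cre all 5 rose, by log2 fold changes of 1.53, 1.23, 1.04, 1.69 and 1.51. In Mef2cAHF::Cre by the sample labels they ran from -0.68 to -0.60 and in Tnnt2::Cre from 0.32 to 0.97, and 0 of 5 passed the threshold in either line.

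Markers of other cells differed between the groups along with these genes. In bulk tissue a lower count of cells of a type and less RNA per cell cannot be told apart. The 8 erythroid markers summed to 1959 to 7666 CPM in Mesp1Cre mutants and 5516 to 18130 CPM in controls. All 8 were lower, 4 past the threshold, where 5.29% of all genes fell. In Tnnt2::Cre they summed to 18167 to 123390 CPM in mutants and 96687 to 151257 CPM in controls. All 8 were lower there, 0 past the threshold, where 0.293% of all genes passed in either direction. In Mef2cAHF::Cre they summed to 25258 to 47848 CPM in the libraries labelled mutant and 7356 to 32609 CPM in those labelled control. By the sample labels all 8 were higher, 1 past the threshold, where 2.85% of all genes passed in either direction. No erythroid marker was at 0 in any library.

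Within each line, the library with the highest mean of the 10 genes had the lowest mean log2 CPM of the erythroid markers. This was mutant 1 in Mesp1Cre at 5.68, mutant 2 in Tnnt2::Cre at 8.25 and the second library labelled control in Mef2cAHF::Cre at 7.08. With the erythroid mean as a covariate 2 genes remained past the threshold in Mesp1Cre, Chac1 (log2 fold change 3.15, adjusted p = 0.0310) and Stc2 (2.55, adjusted p = 0.00105), and 0 in either other line. The log2 fold changes of Slc7a11, Sesn2, Trib3, Psat1 and Asns, which no longer passed, were 1.61, 1.13, 1.02, 0.47 and 0.35, against 1.94, 1.73, 1.67, 0.42 and 0.59 without the covariate. Over all genes the count past the threshold went from 1821 to 205 (1.29%) in Mesp1Cre, from 482 to 326 (1.93%) in Mef2cAHF::Cre and from 50 to 120 (0.704%) in Tnnt2::Cre.

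**Figure D4:**
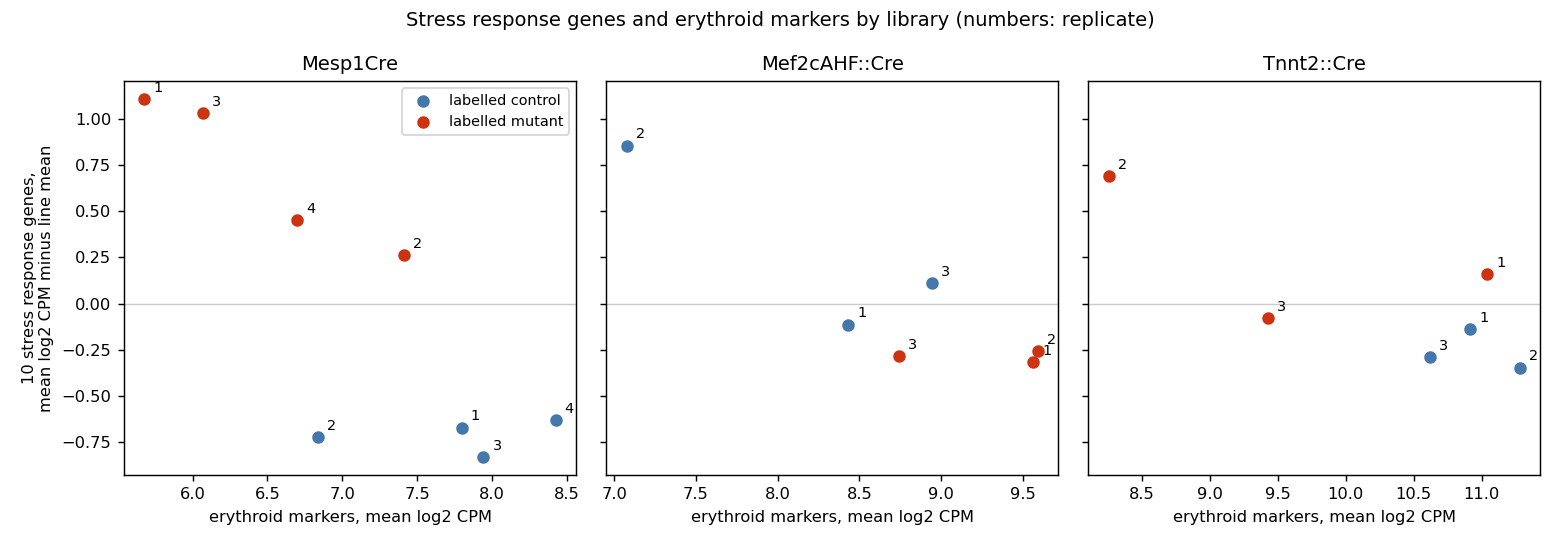
Each point is 1 library, numbered by replicate and coloured by the genotype of its label, with the mean log2 CPM of 8 erythroid markers on the x axis and the mean log2 CPM of the 10 stress response genes minus the mean of the line on the y axis. The 4 Mesp1Cre mutants lie from 0.26 to 1.11 and the controls from -0.83 to -0.63, and in Mef2cAHF::Cre the second library labelled control, at 0.85, has the lowest erythroid mean.

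Sex also differed between groups, as read from Y-linked genes. The 4 Mesp1Cre mutants were male and 2 of 4 controls were, and in Mef2cAHF::Cre the second library labelled control was the only male. In that line a sex covariate marks this 1 library, so it cannot separate sex from the library. With sex as a covariate 4 genes passed in Mesp1Cre, Stc2, Chac1, Sesn2 and Slc7a11, whereas Trib3, Asns and Psat1 did not (adjusted p = 0.104, 0.101 and 0.182). The log2 fold changes of these 3 were then 1.45, 0.56 and 0.32, against 1.67, 0.59 and 0.42 without the covariate, and over all genes the count past the threshold went from 1821 to 899. Endothelial and endocardial markers summed to 676 to 795 CPM in Mesp1Cre mutants and 521 to 617 CPM in controls, with 0 markers at 0. Of these 8 markers 7 were higher, 3 of them past the threshold, where 6.17% of all genes rose, and 1 was lower. In Mef2cAHF::Cre they summed to 652 to 680 CPM in the libraries labelled mutant and 577 to 624 CPM in those labelled control. By the sample labels 6 of 8 were higher, 1 of them past the threshold, where 2.85% of all genes passed in either direction. The other 2 were lower, 1 of them at an unadjusted p under 0.05 by edgeR. Cardiomyocyte markers in Mesp1Cre summed to 38223 to 48652 CPM in mutants and 28756 to 36514 CPM in controls. Of these 8 markers, 5 had log2 fold changes above 0 and 3 under 0, with a median of 0.062. Only 1 was higher past the threshold, where 6.17% of all genes rose, so the sum does not describe the list as a whole. Neural and pharyngeal markers in Mesp1Cre summed to 41.9 to 62.5 CPM in mutants and 72.2 to 97.7 CPM in controls. Of 3 tested, 2 were lower and 1 was higher. Among the lower ones 1 was past the threshold, where 5.29% of all genes fell. Macrophage markers summed to at most 14.0 CPM in Mesp1Cre, where C1qa was at 0 in all libraries. They summed to 26.5 to 37.2 CPM in Tnnt2::Cre mutants against 19.7 to 26.4 CPM in controls, and to 21.3 to 25.6 CPM in Mef2cAHF::Cre libraries labelled mutant against 28.0 to 35.7 CPM in those labelled control, with 0 past the threshold. The part of blood, endothelial, cardiomyocyte, neural and macrophage content in the changes of the 10 genes was not tested. The erythroid covariate cannot separate blood content from genotype, because the erythroid markers all shifted in 1 direction with genotype within each line.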

How the data were processed

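The 20 RNA-seq libraries of embryonic heart from 3 Cre lines were compared within each line, mutant against control. The authors mapped reads to mm9 (TopHat2 2.0.8b in the submitters' processing notes) and deposited raw read counts per gene. They also deposited FPKM values, made with USeq by dividing each count by exonic length and by the total of its library. Of the columns, 40 were used and 20 of variance-corrected log2 values were not. Strand use in counting is not given in the sources used here, and the labels and series text differ on library kit and instrument. The labels do not say whether a library is 1 embryo, so p-values measure the spread between libraries, which may be partly technical.

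Samples were grouped by their titles. For Mef2cAHF::Cre the column names of the table give the opposite genotypes, and both readings were fitted. Counts were fitted per line with edgeR 4.0.16 in R 4.3.3 (filterByExpr, TMM, quasi-likelihood F test, Benjamini-Hochberg adjustment, threshold 0.05). The SE is the size of the log2 fold change divided by the square root of F. Differences between lines were interaction contrasts in 1 fit of 6 groups. Log2 CPM for means over genes used a prior count of 2. A library was read as male where 4 Y-linked genes summed to at least 10 CPM. Scripts were tested on simulated data. The 10 genes and all lists were chosen with earlier results of these data known. All 10 genes are named, and from each pathway list at most 4 genes per line, those past the threshold with the largest change. Exonic overlaps were taken from GENCODE vM1, copies of at least 100 bases from blastn 2.17.0 against mm9, and promoter windows from RefSeq. Gene starts in the table count from 0 and are printed counting from 1.

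Alternatives were DESeq2 size factors, the Wald test of DESeq2 1.42.0, genes with at least 1 count in any library or 10 in every library, a replicate block, limma-trend (limma 3.58.1) on log2(FPKM + 0.1) and log2(FPKM + 1), sex or erythroid content as a covariate, each library left out, and the column names of Mef2cAHF::Cre. Libraries held 21727258 to 45341870 counted reads. Precision is lowest for Chac1, which had 3 reads in 1 control library of Mesp1Cre and of Tnnt2::Cre, and for Slc7a11.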

Additional observations from a re-analysis of the deposited data

Results flagged for a closer look

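Among the Mesp1Cre controls Psat1 in control 4 stood apart from the other controls, at 68.7 CPM against 53.5 CPM for the nearest, a gap that was 0.849 of the range of the group. Chance gives such a gap in about 1 of 20 groups of this size. With 10 genes in both genotypes of this line, a gap of this size in 1 group is not by itself unusual. The genotype effects of 8 genes differed between Mesp1Cre and Mef2cAHF::Cre in the test of the difference, by log2 values of 2.33 for Trib3, 6.09 for Chac1, 1.14 for Asns, 0.82 for Psat1, 0.83 for Phgdh, 2.14 for Sesn2, 2.85 for Slc7a11 and 4.63 for Stc2. Those of 4 genes differed between Mef2cAHF::Cre and Tnnt2::Cre, by -4.72 for Chac1, -0.78 for Psat1, -0.94 for Phgdh and -3.14 for Stc2. These 12 differences follow the sample labels. With the genotypes of the column names, 0 of them passed the threshold.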

How the results depend on the processing

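The 7 genes called in Mesp1Cre were 7 with DESeq2 size factors, the DESeq2 Wald test, all genes with at least 1 count and both limma-trend fits, 6 with at least 10 counts in every library, where Chac1 was not tested, 4 with sex and 2 with erythroid content as a covariate. Leaving out 1 library gave 4 to 7 (6.47% to 13.3%), the lowest without mutant 1. In Mef2cAHF::Cre the 1 gene called (2.85%) became 5 with the DESeq2 Wald test (6.52%) and with all genes of at least 1 count (4.43%). The count became 2 with sex (4.01%), 0 with erythroid content (1.93%), and 0 to 3 when 1 library was left out (0.435% to 3.83%). With 1 male library in this line, the sex covariate amounts to leaving that library out and is not a separate check. By the column names it was 1 gene, higher instead of lower. In Tnnt2::Cre 0 genes were called under all of these settings except without mutant 1, where the count was 3 (5.12%). Leaving out 1 library thus gave 0 to 3 (0.0228% to 5.12%). For the difference between Mesp1Cre and Tnnt2::Cre 0 genes (3.04%) became 2 with the Wald test (6.75%) and 1 with all genes of at least 1 count (2.23%). The count became 2 with erythroid content (6.89%) and 0 to 2 without 1 library (0.881% to 5.66%). For Mesp1Cre against Mef2cAHF::Cre the 8 genes (11.3%) became 3 with erythroid content (4.2%) and 0 by the column names (1.63%). Without 1 library they became 6 to 8 (6.47% to 13.5%). For Mef2cAHF::Cre against Tnnt2::Cre the 4 (3.19%) became 1 with erythroid content (2.65%) and 0 by the column names (0%). Without 1 library they became 2 to 4 (1.56% to 5.43%). The count was lowest without Tnnt2::Cre mutant 2, control 2 or control 3, any 1 library labelled mutant, or the second labelled control of Mef2cAHF::Cre. The causes were not tested.

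Signs changed in these cases, none past the threshold apart from Psat1 by the column names. With erythroid content the log2 fold changes of Ddit3 and Phgdh in Mesp1Cre were -0.072 and -0.019, that of Trib3 in Mef2cAHF::Cre 0.49, and those of Atf4 and Slc7a11 in Tnnt2::Cre 0.23 and -0.17. With sex, Trib3 in Mef2cAHF::Cre was 0.18 and Asns in Tnnt2::Cre -0.15. With limma-trend at pseudocounts of 0.1 and 1 Ddit3 was -0.034 and -0.032 in Mef2cAHF::Cre, and in Tnnt2::Cre Atf4 was 0.059 and 0.059 and Ddit3 0.11 and 0.095. By the column names the Mef2cAHF::Cre values were 0.087 for Atf4, -0.090 for Ddit3, 0.69 for Trib3, 1.85 for Chac1, 0.56 for Asns, 0.42 for Psat1, 0.45 for Phgdh, 0.43 for Sesn2, 0.92 for Slc7a11 and 1.46 for Stc2. The differences from Mesp1Cre were then -0.016 for Psat1 and -0.065 for Phgdh, and those between Mef2cAHF::Cre and Tnnt2::Cre 0.060 for Psat1, 0.37 for Slc7a11, 0.53 for Asns, 1.07 for Trib3, 0.11 for Atf4 and -0.076 for Ddit3. Leaving out 1 library reversed small values, with ranges of -0.016 to 0.26 for Ddit3 and -1.02 to 0.18 for Trib3 in Mef2cAHF::Cre, and -0.27 to 0.16 for Atf4, -0.083 to 0.11 for Ddit3, -0.20 to 0.21 for Asns and -0.21 to 0.88 for Slc7a11 in Tnnt2::Cre. On log2(FPKM + 0.1) the median of all genes moved to 0.15 in the Mesp1Cre hearts, to 0.11 in the Tnnt2::Cre hearts and to -0.13 in the Mef2cAHF::Cre libraries.

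Replicate numbers are shared by mutants and controls, but same-numbered libraries correlated at only -0.04 to 0.18 in their deviations, so the pairing was not taken as real. With the replicate block 7 genes passed in Mesp1Cre, where 8.71% of all genes did, and 0 in Tnnt2::Cre, where 0.164% did. For Mef2cAHF::Cre the count was 2, where 3.06% of all genes passed, with Stc2 added (adjusted p = 0.0380).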
